A study of Homo sapiens with 12 samples.

Results

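The effect of GATA2 knockout on gene expression was described in day 9 hematopoietic progenitors (HPCs) by comparing the 2 libraries labelled H1-GATA2-/- HPC with the 2 libraries of wild-type (WT) H1 HPCs. The description covers protein-coding genes with a TPM (the number of transcripts of a gene per 1000000 transcripts of the library) of 1 or more in at least 2 of these 4 libraries. This left 13049 of the 56266 genes listed for each library. H1 is an established line of human embryonic stem cells (hESCs), and its GATA2-/- derivative was a single clone in which TALENs, a designed nuclease pair, had directed a neomycin cassette into both copies of GATA2. Both lines were differentiated on OP9 cells, a mouse stromal line, and HPCs were sorted as CD34+CD43+ cells at day 9. Hemogenic endothelial cells (HEs, CD34+CD31+CD43-) had been sorted at day 8 from the same lines, 2 libraries per genotype, and are given beside the HPCs for some of the genes and lists. Because there was 1 clone, the knockout and any other property of that clone cannot be told apart.

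GATA2 is a zinc finger transcription factor that binds GATA motifs, often together with TAL1, LMO2 and LDB1, and is known for maintaining blood stem and progenitor cells. In the embryo, blood arises from endothelial cells that round up and leave the vessel wall, the endothelial to hematopoietic transition (EHT), and GATA2 acts in this step. As progenitors mature, GATA1 replaces GATA2 at many sites in erythroid, megakaryocytic and mast cells.

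The 4 HPC libraries held 17043 and 16004 genes at 1 TPM or more in WT and 17335 and 16996 in GATA2-/-. Of the genes described, 11618 reached a TPM of 1 in all 4 libraries. TPM keeps no read number, so the depth behind a value is unknown, and precision could be judged only from the 2 libraries of each group.

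The knockout was directed to the first coding part of GATA2, in exon 2 of 6 of its canonical transcript in GENCODE, counted as exon 3 in the targeting scheme (exon from 128205646 to 128205919 on the minus strand of chromosome 3, GRCh37). The site lies 54 coding bases into an open reading frame of 1440 coding bases, upstream of both zinc fingers. It is shown because it defines the mutant, in the 5′ to 3′ direction of the gene, as the reference has it. The site listed for the TALENs has 51 bases against 49 in the reference, of which the first 42 and the last 9 match, and its right recognition sequence holds the 2 additional bases. Capitals mark the reference bases at the 2 recognition sequences and lower case the spacer between them.
GATA2 TALEN site, chr3:128205772-128205820: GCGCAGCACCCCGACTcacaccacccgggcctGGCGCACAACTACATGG

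GATA2 itself was at 290.1 and 204 TPM in WT HPCs and at 112 and 83.8 TPM in GATA2-/- HPCs. Both GATA2-/- libraries were below both WT libraries. The log2 fold change was -1.32 (SE 0.36), and the adjusted p from limma with Benjamini-Hochberg adjustment was 0.296, so the difference did not pass the threshold of 0.05. In HEs the same gene was at 106.8 and 78.0 TPM in WT and at 110.9 and 94.1 TPM in the libraries labelled GATA2-/-, and these groups overlapped. The value counts all RNA of the locus, including any aberrant mRNA of the disrupted gene. It therefore does not check the genotype of a library, which rests on the labels. For the clone itself, the paper reported disruption of both alleles by genomic PCR and Southern blot. It also reported GATA2 expression in CD34+ cells of both lines, and used a primer set that fails on the mutant sequence to tell them apart.

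Markers of the sorted population were present in every HPC library. CD34 was at 181 and 114 TPM in WT and 242 and 187 TPM in GATA2-/-, and SPN, the gene of CD43, at 104 and 108 TPM in WT and 98.0 and 105.9 TPM in GATA2-/-. RUNX1, the factor that drives EHT, was at 327 and 198 TPM in WT and 361 and 229 TPM in GATA2-/-. The libraries thus carried the RNA of the sorted surface proteins in both genotypes, without a difference in SPN or RUNX1 that exceeded the replicate spread. PTPRC (CD45) was at most 3.09 TPM, below 1 TPM in 3 of the 4 libraries. Markers of mature myeloid cells were uneven. ELANE and PRTN3 of granulocytes, CD14 and C1QA of macrophages and MS4A2 of mast cells were at 0 in all 4 libraries, and MPO reached at most 3.82 TPM. Other markers of the same cells were present: HDC, the histidine decarboxylase of mast cells and basophils, was at 96.7 and 107 TPM in WT and 61.2 and 82.7 TPM in GATA2-/-. Of granulocyte genes, the growth factor receptor CSF3R was at 27.0 and 26.7 TPM in WT and 9.89 and 21.1 TPM in GATA2-/-, and LYZ, lysozyme, at 45.5 and 55.6 TPM in WT and 56.4 and 59.9 TPM in GATA2-/-. The macrophage markers TYROBP and CSF1R, also present, are described with their lists. Endothelial CDH5 was at 110.5 and 53.9 TPM in WT and 137 and 85.9 TPM in GATA2-/-, while CLDN5 and SOX17, also endothelial, reached at most 1.36 and 1.19 TPM. Stromal COL1A1 was at 128 and 40.5 TPM in WT and 65.0 and 42.4 TPM in GATA2-/-, with LUM at most 0.71 TPM. In such bulk libraries, fewer cells of one kind and less RNA per cell cannot be told apart.

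For a typical gene, libraries of different genotypes differed about as much as replicates did. Over the 8390 genes with a mean of at least 10 TPM, the median absolute log2 difference was 0.288 between the WT replicates and 0.273 between the GATA2-/- replicates. In the 4 pairs of 1 GATA2-/- and 1 WT library it was 0.284, 0.278, 0.256 and, for replicate 1 of GATA2-/- against replicate 2 of WT, 0.353, above both replicate values. Of all 13049 genes, 3 (0.023%) passed an adjusted p of 0.05 in limma: CKB fell, and RPS6KA2 and AL109927.1 rose. Over all 21543 genes that entered the test, non-coding ones included, 13 passed (0.0603%). At an unadjusted p under 0.05 there were 1196 genes (9.17%), 741 higher (5.68%) and 455 lower (3.49%) in GATA2-/-. The share of higher genes among them was 62.0%, and it depended on scaling: 48.3% after quantile normalization, 40.5% with the medians of the libraries made equal and 79.3% with the mitochondrially encoded genes left out of the total. It also depended on single libraries: without replicate 1 of WT it was 79.1% (1014 higher and 268 lower), without replicate 2 of WT 40.8% (431 and 625), without replicate 1 of GATA2-/- 48.7% (456 and 480) and without replicate 2 of GATA2-/- 65.7% (959 and 501). Both GATA2-/- libraries were above both WT libraries for 2808 genes (21.5%) and below both for 2009 genes (15.4%). These shares are the background for the gene lists described further on. The plot of mean TPM in both genotypes shows these proportions.

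**Figure D1:**
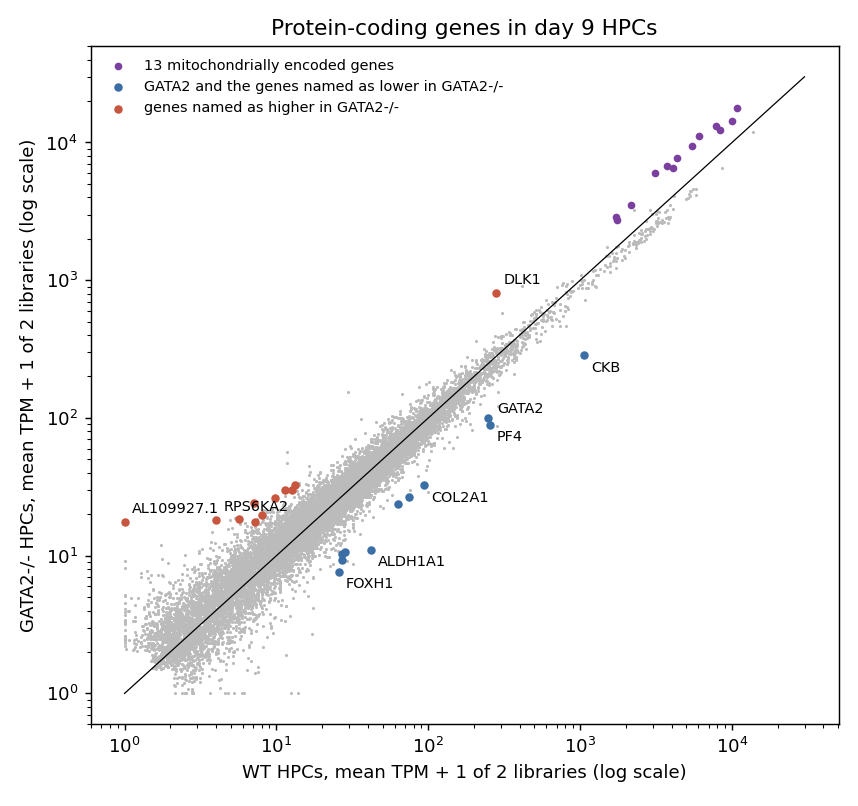
Mean TPM + 1 of the 2 GATA2-/- HPC libraries (vertical, log scale) against that of the 2 WT HPC libraries (horizontal, log scale) for 13049 protein-coding genes; each point is a gene and the line marks equal means. The 13 mitochondrially encoded genes (purple) all lie above the line among the most abundant genes, and CKB, GATA2 and PF4 lie below it.

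CKB, the brain type of cytosolic creatine kinase, which regenerates ATP from phosphocreatine, had the lowest adjusted p. It was at 1209.7 and 923 TPM in WT HPCs and at 334 and 234 TPM in GATA2-/- HPCs. The groups were far apart, and CKB fell 3.75-fold (log2 fold change -1.91, SE 0.19, adjusted p = 0.0177 in limma). CKB lies on chromosome 14 from 103986004 to 103989170 (minus strand, GRCh37). In HEs it was at 271 and 286 TPM in WT and at 117 and 109.8 TPM in the libraries labelled GATA2-/-, again without overlap (log2 fold change -1.29, adjusted p = 0.133 in limma). Other enzymes of creatine metabolism had log2 fold changes in both directions. Muscle type CKM was at 1.80 and 2.31 TPM in WT and 0.52 and 1.01 TPM in GATA2-/- (-0.80), below both WT libraries. The creatine synthesis enzymes GATM and GAMT had log2 fold changes of 0.20 and -0.50. CKMT1A and CKMT1B, the mitochondrial forms, differed in opposite directions (1.91 and -1.49), but these 2 genes are near-identical copies whose reads cannot be assigned with certainty.

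RPS6KA2, a ribosomal S6 kinase activated by ERK, was at 3.68 and 2.37 TPM in WT HPCs and at 18.5 and 16.01 TPM in GATA2-/- HPCs. It rose 5.71-fold (log2 fold change 2.20, SE 0.24, adjusted p = 0.0212 in limma). The gene spans chromosome 6 from 166822852 to 167319939 (minus strand, GRCh37). In HEs, where it was at 28.3 and 29.6 TPM in WT and 34.1 and 37.7 TPM in those labelled GATA2-/-, its log2 fold change was 0.30. WT HPCs thus held less of this RNA than HEs of either genotype, and GATA2-/- HPCs lay between. The difference between the effects in the 2 cell types had an unadjusted p of 0.00037 in limma and an adjusted p of 0.443. Its relatives RPS6KA1 and RPS6KA3 had log2 fold changes of -0.30 and 0.34.

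AL109927.1, a predicted protein-coding gene of 171 exonic bases (chromosome 1 from 28177085 to 28177255, minus strand), was listed at 0 in both WT libraries and at 15.1 and 18.1 TPM in GATA2-/- HPCs. Its log2 fold change was 4.13 (SE 0.53), and its adjusted p in limma rounded to 0.05 and lay just under the threshold. It was listed at 0 in WT HEs too and at 2.28 and 9.94 TPM in HEs labelled GATA2-/-. This model is shorter than the cDNA library fragments that were selected by size, but whether that size included adapters is not stated. AL109927.1 passed the threshold in 3 of 15 alternative settings, against 10 of 16 for CKB and 9 of 16 for RPS6KA2.

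Beyond these 3, the 10 genes with the largest fall and the 10 with the largest rise were taken among the 179 genes with a mean of at least 10 TPM, at least 200 exonic bases, an unadjusted p under 0.01 and groups without overlap. Apart from CKB and RPS6KA2, none of these passed the adjusted threshold (adjusted p from 0.153 to 0.324 in limma among those lower and up to 0.318 among those higher), and since they were chosen for their size, the values below are a description.

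Of the genes with the largest fall besides CKB, PF4, a chemokine stored in platelet granules, was at 199.6 and 307 TPM in WT and at 76.5 and 99.5 TPM in GATA2-/- (log2 fold change -1.49, SE 0.27, adjusted p = 0.153 in limma). In HEs, PF4 was at 37.3 and 32.1 TPM in WT and at 3.66 and 4.70 TPM in the libraries labelled GATA2-/-, and there it fell past the threshold (log2 fold change -2.79, adjusted p = 0.0249 in limma), as 1 of all 13049 genes (0.00766%). PF4 was therefore low in both cell types of the mutant clone. SIGLEC10, an inhibitory receptor of leukocytes that binds sialic acid, was at 28.4 and 23.6 TPM in WT and at 6.17 and 10.4 TPM in GATA2-/-. ADAM8, a membrane metalloprotease of leukocytes, was at 28.4 and 24.0 TPM in WT and at 7.68 and 10.9 TPM in GATA2-/-. Both were lower in each GATA2-/- library than in each WT library, by 1.57 and 1.41 on the log2 scale.

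The other 6 genes with the largest fall have varied known roles. ALDH1A1, which oxidizes retinal to retinoic acid and is used as a marker of stem and progenitor cells, was at 40.8 TPM in both WT libraries and at 13.6 and 6.37 TPM in GATA2-/- (log2 fold change -2.01, SE 0.53). FOXH1, a partner of SMAD proteins in nodal and activin signalling, was at 30.8 and 18.7 TPM in WT and at 8.64 and 4.59 TPM in GATA2-/-. TAC3, the precursor of neurokinin B, was at 66.5 and 79.9 TPM in WT and at 29.9 and 21.9 TPM in GATA2-/-. All 3 were lower in GATA2-/- without overlap. COL2A1, a fibrillar collagen of cartilage, was at 104 and 81.0 TPM in WT and at 34.0 and 29.0 TPM in GATA2-/-, and its log2 fold change was nearly equal in HPCs and HEs (-1.52 and -1.54). TNNT1, the slow skeletal form of troponin T, was at 58.1 and 66.2 TPM in WT and at 21.9 and 23.5 TPM in GATA2-/-. FAM110A was at 31.9 and 22.3 TPM in WT and at 8.35 and 11.1 TPM in GATA2-/-.

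Of the 10 genes with the largest rise, DLK1, an imprinted Notch-related membrane protein of fetal and progenitor cells, was the most abundant, at 202 and 356 TPM in WT and at 579.8 and 1021.9 TPM in GATA2-/- (log2 fold change 1.52, SE 0.38, adjusted p = 0.277 in limma). In HEs it was at 43.0 and 60.5 TPM in WT and at 54.3 and 51.1 TPM in the libraries labelled GATA2-/-, which overlapped. IGF2, another imprinted growth gene but not one of these 10, was at 45.1 and 29.1 TPM in WT HPCs and at 87.6 and 65.8 TPM in GATA2-/- HPCs (log2 fold change 1.04). BAALC, a gene known from immature and leukemic progenitors, was at 5.43 and 6.70 TPM in WT and at 24.3 and 21.5 TPM in GATA2-/-. IFI16, a nuclear sensor of DNA, was at 12.8 and 7.97 TPM in WT and at 32.6 and 25.7 TPM in GATA2-/-, against 156 to 185 TPM in all HE libraries. In each of these 4 genes both GATA2-/- libraries were above both WT libraries.

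TANC2, a scaffold protein, was at 3.40 and 5.93 TPM in WT and at 15.1 and 19.6 TPM in GATA2-/-. ELN, which encodes elastin, was at 13.3 and 10.99 TPM in WT and at 29.4 and 33.3 TPM in GATA2-/-. EGF, the epidermal growth factor precursor, was at 6.72 and 7.39 TPM in WT and at 20.5 and 16.6 TPM in GATA2-/-. The log2 fold changes of TANC2, ELN and EGF were 1.72, 1.30 and 1.28, and their groups did not overlap. JHDM1D, a histone demethylase, was at 8.71 and 3.83 TPM in WT and at 15.9 and 17.0 TPM in GATA2-/-. The readthrough gene TGIF2-C20orf24 was at 11.9 and 5.82 TPM in WT and at 19.3 and 31.5 TPM in GATA2-/-, but it shares reads with TGIF2 and C20orf24 and its value is uncertain. PAQR6, a membrane receptor of the progestin family, was at 14.1 and 9.35 TPM in WT and at 28.4 and 29.3 TPM in GATA2-/-, with log2 fold changes of 1.26 in HPCs and 1.20 in HEs.

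Of the 10 genes with the largest fall in HPCs, all 10 also had a negative log2 fold change in HEs, from -2.79 to -0.15, and for 7 of them the HE groups did not overlap either (19.1% of all genes were below without overlap in HEs). Of the 10 with the largest rise, 6 were positive and 4 negative in HEs, from -1.24 to 1.20, and 2 were above without overlap (13.9% of all genes). The HE comparison used other libraries, but the same clone. No gene passed an adjusted p of 0.05 in limma for the difference between the genotype effects in HPCs and HEs, while 668 genes (5.12%) had an unadjusted p under 0.05. The values of each library are shown in the plot of the named genes.

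**Figure D2:**
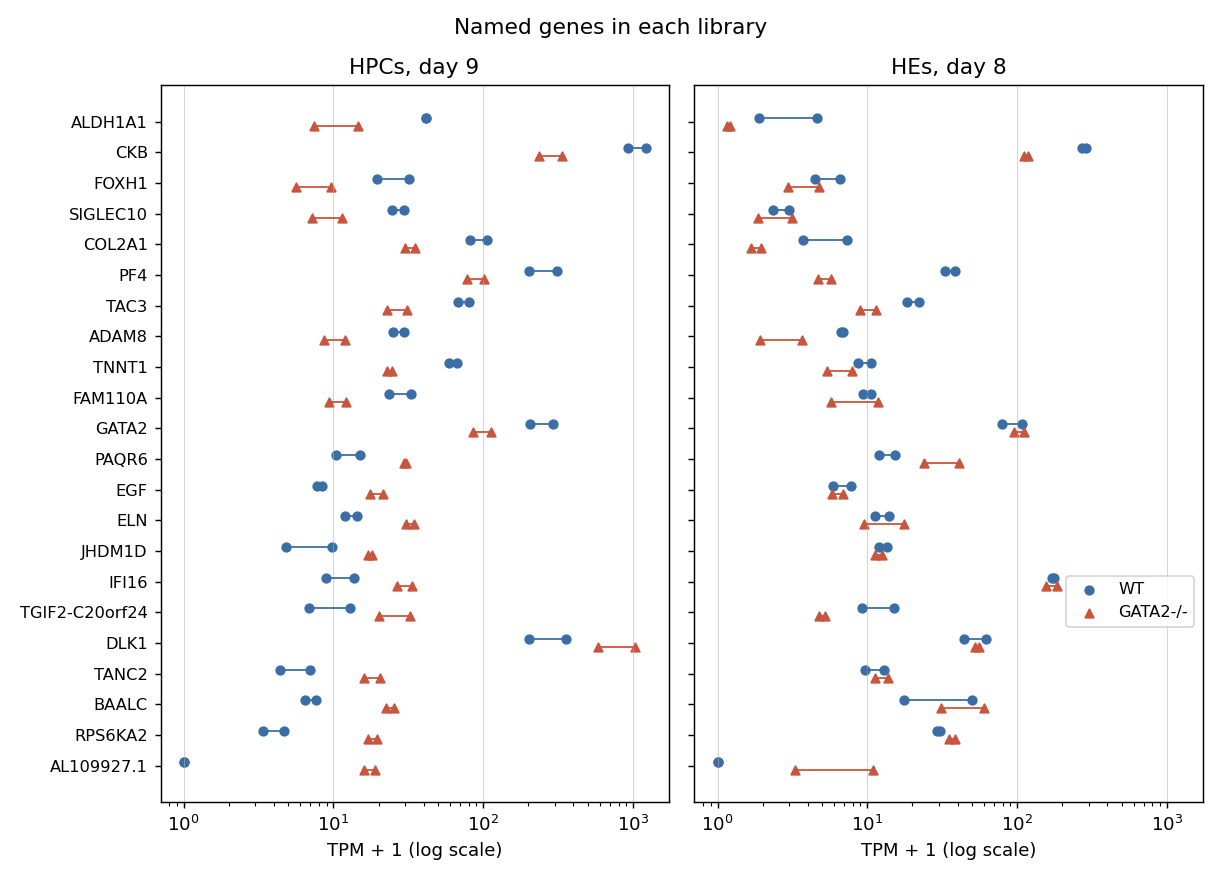
TPM + 1 (log scale) of GATA2, the 3 genes past the threshold and the 10 genes with the largest fall and rise, in HPCs (left) and HEs (right); each point is 1 library and a line joins the 2 libraries of a genotype. In HPCs all WT circles lie apart from the GATA2-/- triangles, which the choice of the 20 genes with the largest changes fixed for those, while in HEs the genes of the upper rows mostly keep their direction and those of the lower rows mostly overlap.

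Promoters were searched for AGATAA and its reverse complement TTATCT, the preferred letters of GATA factors, from 250 bases before to 50 bases after each start site in RefSeq (GRCh38.p14). For the 10 genes with the largest fall, 7 had an entry, and 1 of their 9 promoters (11.1%) held the motif. For the 10 with the largest rise, 5 had an entry, and 1 of 8 promoters (12.5%) held it. Over all genes described, 902 of 14449 promoters did (6.24%), and 3628 of the 35116 promoters of the whole RefSeq set (10.3%). The 2 promoters with a match and the promoter of CKB, which has none, are shown 5′ to 3′ on the strand of the gene, with the motif in capitals. A match is a description of the letters, and binding was not measured.
ALDH1A1, chr9:72953004-72953303, minus strand, motif 28 bases before the start site: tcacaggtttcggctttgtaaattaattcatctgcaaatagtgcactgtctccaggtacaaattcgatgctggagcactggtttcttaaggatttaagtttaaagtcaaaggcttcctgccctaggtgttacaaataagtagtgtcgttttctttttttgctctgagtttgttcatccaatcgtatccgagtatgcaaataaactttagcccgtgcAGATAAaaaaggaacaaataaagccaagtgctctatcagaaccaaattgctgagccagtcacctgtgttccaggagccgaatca
EGF, chr4:109912633-109912932, plus strand, reverse complement of the motif 145 bases before the start site: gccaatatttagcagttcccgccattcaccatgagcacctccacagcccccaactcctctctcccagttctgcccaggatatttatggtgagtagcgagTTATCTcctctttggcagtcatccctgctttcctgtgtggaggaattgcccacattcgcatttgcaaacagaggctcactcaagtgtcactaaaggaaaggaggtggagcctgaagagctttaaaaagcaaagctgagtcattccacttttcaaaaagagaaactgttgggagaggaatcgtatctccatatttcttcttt
CKB, chr14:103522781-103523080, minus strand, 72.3% G and C: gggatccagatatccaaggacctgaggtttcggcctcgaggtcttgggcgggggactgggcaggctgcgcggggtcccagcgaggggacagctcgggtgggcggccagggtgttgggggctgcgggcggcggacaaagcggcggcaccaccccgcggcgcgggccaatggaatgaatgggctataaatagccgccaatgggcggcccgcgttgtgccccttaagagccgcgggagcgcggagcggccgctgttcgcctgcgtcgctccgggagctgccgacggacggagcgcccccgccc

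Gene lists are given next by the number of their members that were above or below both WT libraries in both GATA2-/- libraries, against 21.5% above and 15.4% below over all genes, and by their median log2 fold change, which was 0.06 over all genes. Except for CKB and RPS6KA2, no member of any list passed the adjusted threshold in limma, so the lists describe directions in these 4 libraries. The plot of gene lists shows all of them.

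**Figure D3:**
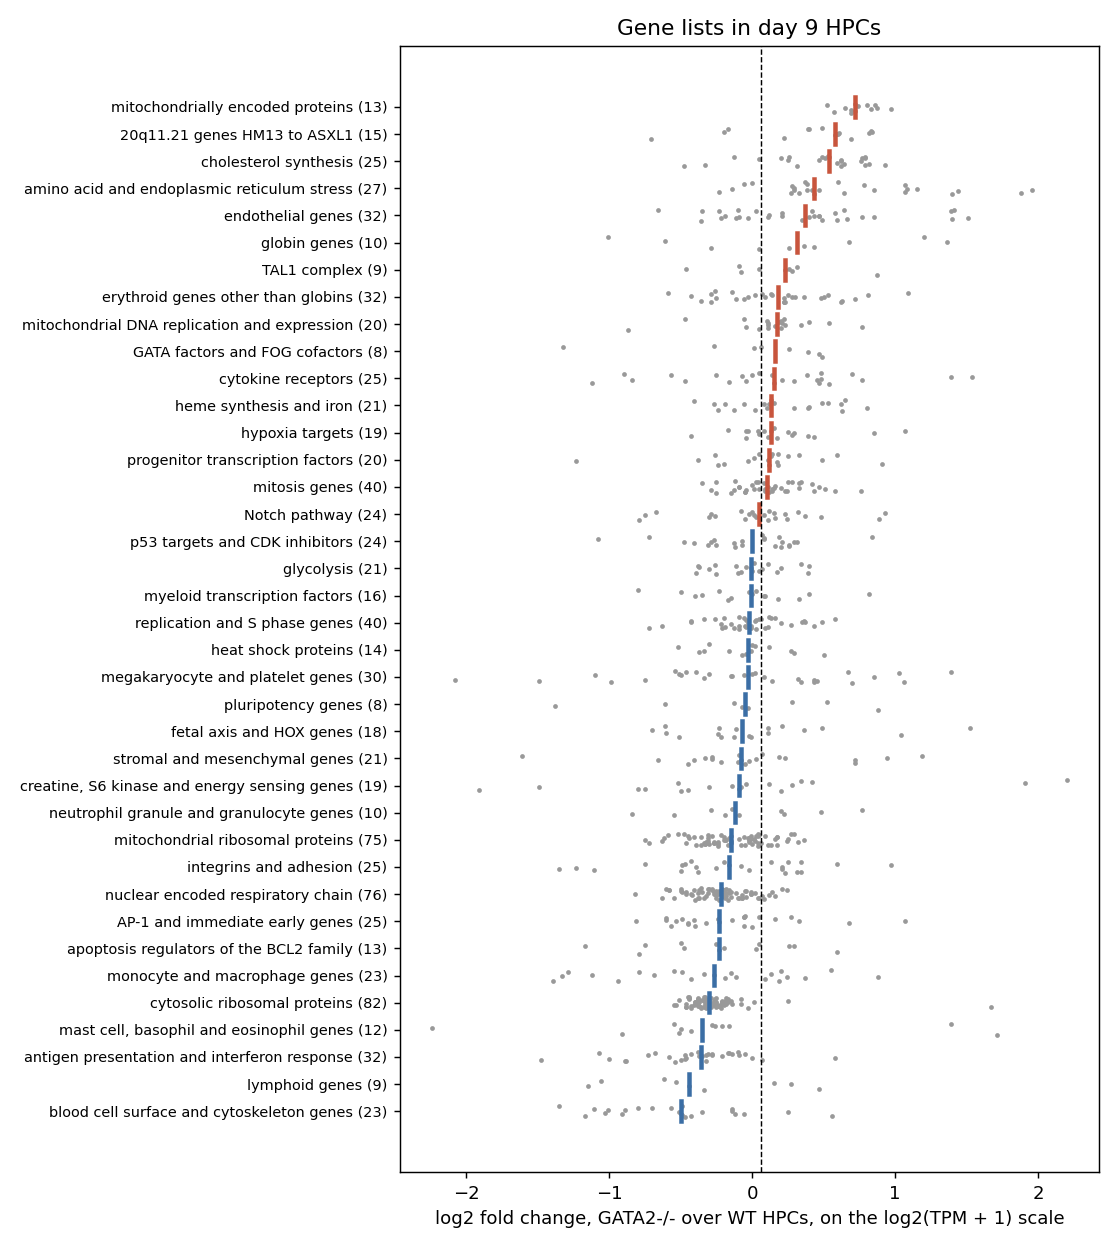
Log2 fold change of GATA2-/- over WT HPCs on the log2(TPM + 1) scale (horizontal) for the members of 38 gene lists (rows, number of members in brackets); each grey point is a gene, the coloured bar is the list's median (red above 0, blue below) and the dashed line is the median of all genes, 0.06. The medians run from -0.50 for blood cell surface and cytoskeleton genes to 0.72 for mitochondrially encoded proteins.

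Genes of the blood cell surface and cytoskeleton, which serve adhesion, migration and signalling in leukocytes, were the list with the lowest median. Of 23 members, 13 were below both WT libraries and 1, CD34, above both, and the median was -0.50 (-0.19 in HEs). PTPN6, a phosphatase that restrains cytokine receptors, was at 204 and 151 TPM in WT and at 76.8 and 113 TPM in GATA2-/- (log2 fold change -0.91). RAC2, a GTPase that moves the leukocyte cytoskeleton, was at 215 and 219.8 TPM in WT and at 114 and 135 TPM in GATA2-/- (-0.80). VAV1, an exchange factor for such GTPases, was at 120.3 and 87.7 TPM in WT and at 72.9 and 53.8 TPM in GATA2-/- (-0.70). In all 3 the mutant libraries lay below the WT ones. ITGB2, the common chain of leukocyte integrins, had a log2 fold change of -1.11. In contrast, CD43 (SPN) and SELPLG were near equal (-0.06 and -0.12). The median was -0.87 without replicate 2 of GATA2-/- and -0.34 without replicate 1, which had the lower values of CORO1A, WAS and LCP1 of the 2 mutant libraries.

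Genes of antigen presentation and the interferon response had 17 of 32 members below both WT libraries and 0 above both, with a median of -0.36 (-0.20 in HEs). B2M, the light chain of MHC class I, was at 503 and 523 TPM in WT and at 391 and 351 TPM in GATA2-/- (log2 fold change -0.47). CD74, the invariant chain of MHC class II, was at 31.4 and 21.9 TPM in WT and at 10.7 and 13.3 TPM in GATA2-/- (-1.07). IFITM3, an antiviral membrane protein, was at 778 and 853 TPM in WT and at 690.4 and 578 TPM in GATA2-/- (-0.37). PSMB8 of the immunoproteasome was at 2.92 TPM or less. Each of these 4 was lower in both mutant libraries, and the list's median ranged from -0.46 to -0.27 over all alternatives.

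Lineage lists were mixed. Among 23 monocyte and macrophage genes, 5 were below and 3 above both WT libraries (median -0.27), the lowest being TYROBP, an adaptor of myeloid receptors, at 124 and 167 TPM in WT and 35.2 and 83.6 TPM in GATA2-/- (log2 fold change -1.39). AIF1, a calcium-binding protein of macrophages, had a log2 fold change of -0.94. CCL3, a chemokine, had -1.33 but was near the floor, at 1.54 and 1.48 TPM in WT and 0 in both GATA2-/- libraries. It thus entered the description through WT alone. In HEs CCL3 went the other way, at 0.64 and 0 TPM in WT and at 2.42 and 0.97 TPM in the libraries labelled GATA2-/-. The summed level of the 35 genes of this list was 959.9 and 1094.2 TPM in WT and 651 and 821 TPM in GATA2-/-, with AIF1 the most abundant, and 7 of them, CD14 and C1QA included, were at 0 in all 4 libraries. Neutrophil granule genes had 10 members, of which 2 were below and 1 above. Myeloid transcription factors were near balance (16 members, 3 below, 2 above, median -0.01): SPI1 was at 195 and 151 TPM in WT and at 81.0 and 118 TPM in GATA2-/- (-0.80), and EGR1 at 242 and 214 TPM in WT and at 217 and 239.9 TPM in GATA2-/- (0.00). In HEs, SPI1 was at 35.8 and 22.2 TPM in WT and at 6.87 and 2.41 TPM in the libraries labelled GATA2-/- (log2 fold change -2.50, adjusted p = 0.25 in limma). The sizes of these differences rested in part on single libraries, as the median of the monocyte list was -0.52 without replicate 2 of WT and -0.11 without replicate 1 of GATA2-/-, while those of the neutrophil list (from -0.35 to 0.18) and of the myeloid transcription factors (from -0.33 to 0.08) changed sign over the alternatives.

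Mast cell, basophil and eosinophil genes split by member. Of 12, 6 were below and 2 above both WT libraries, with a median of -0.35. CD63, a granule membrane protein, was at 772 and 819 TPM in WT and at 652 and 537 TPM in GATA2-/-. PRG2, the eosinophil major basic protein, was at 1.35 and 8.51 TPM in WT and listed at 0 in both GATA2-/- libraries, and FCER1A, a chain of the IgE receptor, had a log2 fold change of -0.91 at 2.31 TPM or less. KIT, the stem cell factor receptor, went the other way, at 4.02 and 3.04 TPM in WT and at 8.48 and 13.7 TPM in GATA2-/- (log2 fold change 1.39, SE 0.27, adjusted p = 0.205 in limma). ALOX5, a leukotriene enzyme, was likewise higher in both mutant libraries (1.71). KIT was also higher in HEs labelled GATA2-/-, at 45.2 and 40.1 TPM against 21.8 and 23.2 TPM in WT HEs, so the 2 cell types shared this direction.

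Megakaryocyte and platelet genes had 9 members above and 8 below both WT libraries of 30, with a median of -0.03. Beside PF4, the chemokine PPBP was at 6.72 and 8.63 TPM in WT and at 0 and 3.15 TPM in GATA2-/-, and SELP, a selectin of platelet granules, at 36.1 and 33.5 TPM in WT and 16.7 and 24.7 TPM in GATA2-/-. TUBB1, the tubulin of platelets, was at 1.81 and 4.61 TPM in WT and at 5.54 and 15.5 TPM in GATA2-/- (log2 fold change 1.39, from 0.72 without replicate 2 of GATA2-/- to 2.05 without its replicate 1). Also higher in both mutant libraries were CD9, a tetraspanin (1.06), VWF (0.85) and LTBP1, a binding protein of latent TGF-beta (0.67). The receptor chains ITGA2B and ITGB3 had log2 fold changes of -0.39 and 0.34.

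For the most abundant globins, replicate 2 was the higher library of each genotype. HBE1, the embryonic beta-like globin, was at 1495.8 and 4448 TPM in WT and at 1598 and 4487 TPM in GATA2-/-. HBZ, the embryonic alpha-like globin, was at 86.8 and 519.8 TPM in WT and at 276 and 872 TPM in GATA2-/- (log2 fold change 1.20). HBA2 and HBA1, the later alpha globins, had log2 fold changes of 1.36 and 0.68, and these 3 overlapped between the genotypes. Within each replicate number, the GATA2-/- library was above the WT library for HBZ, HBA2 and HBA1 and for the summed share of the globins. The median of the 10 globin genes was 0.31, with 3 of them negative. The genotypes did not overlap for HBD, at 101.5 and 169.9 TPM in WT and at 54.4 and 77.0 TPM in GATA2-/- (log2 fold change -1.01), or for HBB, the adult form, at 11.6 and 9.74 TPM in WT and at 4.65 and 9.29 TPM in GATA2-/- (-0.61). The globins took 0.461% and 1.40% of TPM in WT and 0.709% and 1.58% in GATA2-/- (difference 0.216 percentage points, exact two-sided permutation p = 0.667). Of 32 other erythroid genes, 8 were above and 3 below both WT libraries (median 0.18). In HEs 2 were above and 16 below (median -0.48), against 13.9% above and 19.1% below over all genes in HEs. TFRC, the transferrin receptor, was at 103 and 108 TPM in WT and at 131 and 204 TPM in GATA2-/-, ANK1, a membrane skeleton protein, at 9.15 and 18.2 TPM in WT and at 27.4 and 30.3 TPM in GATA2-/-, and GYPC, a glycophorin, at 201.1 and 219.9 TPM in WT and at 161 and 166 TPM in GATA2-/-. KLF1, the erythroid master factor, was at 89.6 and 96.1 TPM in WT and at 92.9 and 102 TPM in GATA2-/-.

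None of the partners of GATA2 reached an unadjusted p of 0.05 in limma. GATA1 was at 172 and 219.6 TPM in WT and at 143 and 182 TPM in GATA2-/-, which overlapped (log2 fold change -0.27). In HEs it was at 18.4 and 12.1 TPM in WT and at 2.78 and 1.37 TPM in the libraries labelled GATA2-/- (log2 fold change -2.41, adjusted p = 0.0814 in limma), and the difference between the effects had an unadjusted p of 0.000876 and an adjusted p of 0.483 in limma. TAL1, LMO2 and LDB1, which bind DNA with GATA factors as 1 complex, had log2 fold changes of 0.23, 0.26 and 0.05, and the cofactor ZFPM1 0.39. In the list of 8 GATA and FOG genes, only GATA2 itself was below both WT libraries, and none was above. Of 20 progenitor transcription factors, 5 were above and 2 below (median 0.12). LMO4, a LIM-only protein that competes for LDB1, was at 320 and 252 TPM in WT and at 142 and 102 TPM in GATA2-/- (log2 fold change -1.23, SE 0.24, adjusted p = 0.205 in limma). ETV6, an ETS factor of progenitor survival, was at 23.5 and 23.9 TPM in WT and at 40.1 and 32.5 TPM in GATA2-/- (0.59). MYB, FLI1, ERG and GFI1B lay between -0.20 and 0.33.

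Endothelial genes, the program that cells leave behind during EHT, had 8 of 32 members above and 2 below both WT libraries, with a median of 0.37 (0.22 in HEs). APLN, the ligand of the apelin receptor, was at 2.02 and 1.73 TPM in WT and at 8.61 and 5.92 TPM in GATA2-/- (log2 fold change 1.51). SOX7, a factor of hemogenic endothelium, was at 14.1 and 2.88 TPM in WT and at 24.4 and 15.4 TPM in GATA2-/- (1.41). CD93, an endothelial surface receptor, was at 9.71 and 3.14 TPM in WT and at 22.3 and 12.3 TPM in GATA2-/- (1.40). All 3 were higher in both mutant libraries. PROCR, the protein C receptor, went the other way, at 70.0 and 54.1 TPM in WT and at 39.2 and 37.8 TPM in GATA2-/- (-0.66). The more abundant KDR, TIE1 and EGFL7 had log2 fold changes of 0.47, 0.21 and -0.11. Replicate 2 of WT was low in most of these genes, and without it the median was -0.03, against 0.70 without replicate 1 of WT. The summed level of all 36 genes was 2623 and 1759.5 TPM in WT and 2540.5 and 2068 TPM in GATA2-/-, which overlapped.

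Of 24 Notch pathway genes, 2 were above and 4 below both WT libraries, with a median of 0.05. HES1, a Notch target, was at 219 and 103 TPM in WT and at 103 and 77.3 TPM in GATA2-/- (log2 fold change -0.75). Replicate 2 of WT and replicate 1 of GATA2-/- were thus nearly equal in HES1. MAML2, a coactivator of Notch, had a log2 fold change of 0.93 at 2 TPM or less. NOTCH1 was at 45.03 and 24.5 TPM in WT and at 38.7 and 33.2 TPM in GATA2-/-. Of 25 cytokine receptors, 7 were above and 4 below. OSMR, the oncostatin M receptor, had a log2 fold change of 1.54 at 4.95 TPM or less, TGFBR1 of 0.70 (0.31 without replicate 1 of GATA2-/-) and IFNAR1 of 0.54. IL4R overlapped between the genotypes, at 4.87 and 10.95 TPM in WT and at 2.43 and 4.91 TPM in GATA2-/- (-0.90, or -0.38 without replicate 2 of WT), while CSF1R, the macrophage growth factor receptor, was at 40.4 and 34.1 TPM in WT and at 9.70 and 27.5 TPM in GATA2-/-.

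The mitochondrially encoded genes were the list with the most uniform direction. All 13, which encode subunits of the respiratory chain and ATP synthase, were above both WT libraries in both GATA2-/- libraries, with log2 fold changes from 0.52 (MT-CO2) to 0.97 (MT-CYB) and a median of 0.72, against -0.07 in HEs. After quantile normalization the log2 fold changes of the abundant MT-CO2, MT-CO3 and MT-CO1 were 0.07, 0.06 and 0.28, that of MT-ATP8 was 0.28, and the median was 0.52. MT-CYB was at 2906 and 3283 TPM in WT and at 6441 and 5648.5 TPM in GATA2-/-, and came nearest to the threshold (SE 0.13, adjusted p = 0.0673 in limma). MT-CO1, the most abundant, was at 10039.9 and 11651 TPM in WT and at 17886 and 17742 TPM in GATA2-/-. All RNA of the mitochondrial genome, ribosomal and transfer RNA included, took 8.66% and 9.61% of TPM in WT (9.14% ± 0.674, SD, n = 2) and 15.1% and 14.8% in GATA2-/- (14.9% ± 0.275, SD, n = 2). The difference was 5.81 percentage points, larger than the spread of either group, and the exact two-sided permutation p was 0.333, the smallest that 2 against 2 libraries can give. In HEs the shares were 6.56% ± 0.377 and 6.44% ± 0.0782 (SD, n = 2 each).

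The nuclear partners of these genes mostly had the opposite direction. Of 76 nuclear encoded respiratory chain genes, 1 was above and 36 below both WT libraries (median -0.22). Of 75 mitochondrial ribosomal protein genes, 6 were above and 32 below (median -0.15, from -0.25 to -0.06 over the alternatives). ATP5D, a subunit of ATP synthase, and NDUFS8, of complex I, had log2 fold changes of -0.82 and -0.60. That of ATP5D ran from -1.13 to -0.50 with 1 library left out. Genes that replicate and express mitochondrial DNA had 6 of 20 members above and 2 below both WT libraries, with a median of 0.17. Among them TFAM, which packages mitochondrial DNA, was at 30.1 and 36.01 TPM in WT and at 40.1 and 36.1 TPM in GATA2-/-. LRPPRC, which stabilizes mitochondrial mRNA, was at 92.1 and 68.3 TPM in WT and at 109 and 122 TPM in GATA2-/- (log2 fold change 0.54). TFB1M, a methyltransferase of mitochondrial ribosomal RNA, had a log2 fold change of -0.87.

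Cytosolic ribosomal proteins had 59 of 82 members below both WT libraries and 0 above, with a median of -0.30, and took 19.4% and 23.4% of TPM in WT and 16% and 18.4% in GATA2-/- (difference -4.19 percentage points, exact two-sided permutation p = 0.333). RPS2, among the most abundant, was at 5345.5 and 6296 TPM in WT and at 3474 and 4776 TPM in GATA2-/-. TPM sums to a fixed total, so a rise in 1 share and a fall in another cannot be told apart from these values. With the mitochondrially encoded genes left out of the total, the median was -0.21 for cytosolic ribosomal proteins and -0.12 for the nuclear encoded respiratory chain. Over all genes it was 0.14 in that setting. After quantile normalization the median of cytosolic ribosomal proteins was -0.15, against -0.01 over all genes. The shares by group and library are drawn in the plot of shares of TPM.

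**Figure D4:**
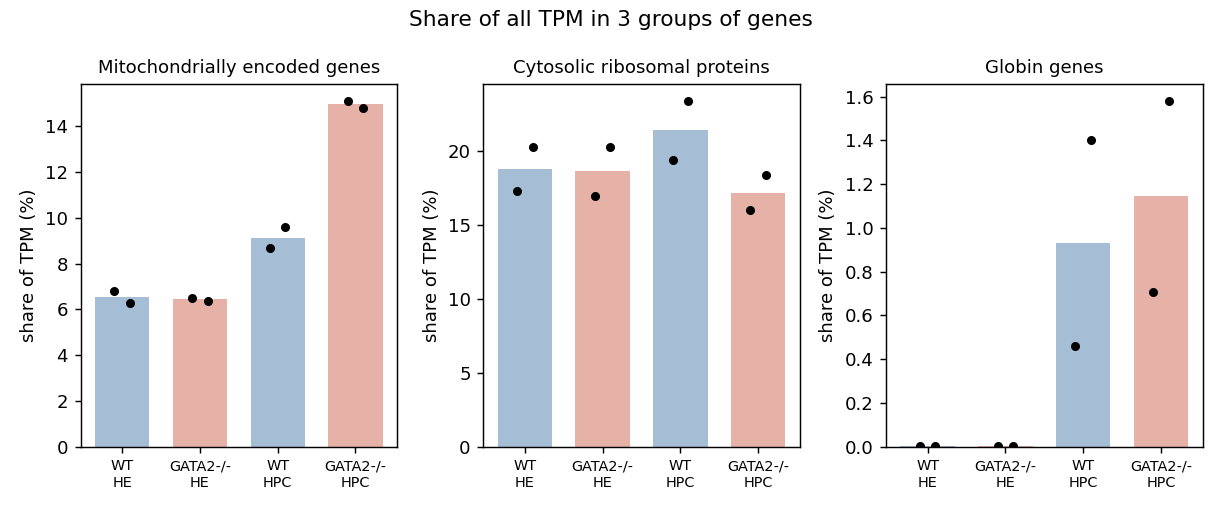
Share of all TPM (%) in RNA of the mitochondrial genome, in cytosolic ribosomal protein genes and in globin genes; bars are means of 2 libraries and points are the single libraries. In GATA2-/- HPCs the mitochondrial share (15.1% and 14.8%) lies above both WT HPC libraries and all HE libraries, the ribosomal share lies below both WT HPC libraries, and the globin shares of the genotypes overlap.

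Most cholesterol synthesis genes had higher values in GATA2-/- HPCs. Of 25 members, 11 were above and 2 below both WT libraries, 10 had an unadjusted p under 0.05, all of them higher (5.68% of all genes), and the median was 0.54, against 0.11 in HEs. HMGCS1, which makes the first committed precursor, was at 106.6 and 65.5 TPM in WT and at 217 and 118 TPM in GATA2-/- (log2 fold change 0.93). SQLE, which oxidizes squalene, was at 92.3 and 56.7 TPM in WT and at 152 and 100.5 TPM in GATA2-/- (0.76). Both were higher without overlap, as were MSMO1, ACAT2, DHCR7, HSD17B7, IDI1, MVD and FDFT1 at log2 fold changes from 0.54 to 0.82. Replicate 1 of GATA2-/- held the higher value for most members: the median was 0.25 without it and 0.83 without replicate 2.

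Genes of amino acid synthesis and endoplasmic reticulum stress, many of them targets of ATF4, had 13 of 27 members above both WT libraries and 0 below, with a median of 0.43. In HEs the median was 0.38, but 2 were above and 0 below both WT libraries, against 13.9% above over all genes. PHGDH, the first enzyme of serine synthesis, was at 7.49 and 14.0 TPM in WT and at 20.02 and 90.6 TPM in GATA2-/- (log2 fold change 1.96). PSAT1, the next enzyme, was at 6 and 15.4 TPM in WT and at 20.5 and 72.0 TPM in GATA2-/- (1.88), and ASNS, asparagine synthetase, at 12.9 and 17.96 TPM in WT and at 29.9 and 58.2 TPM in GATA2-/- (1.40). Replicate 2 of GATA2-/- was the highest library for each of the 3. Without it the median of the list was 0.13, and without replicate 1 of GATA2-/- it was 0.80, so the size of this difference rested on that library.

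Further programs had members in both directions. Of 25 AP-1 and immediate early genes, 8 were below and 5 above both WT libraries (median -0.23), with FOS at 310.4 and 417 TPM in WT and at 185 and 227 TPM in GATA2-/-, and JUND at 281 and 241 TPM in WT and at 138 and 213 TPM in GATA2-/-. Replication and S phase genes were near balance, with 6 above and 6 below of 40 (median -0.02). Mitosis genes had 7 above and 4 below of 40 (median 0.10). Of these 40, 28 had a positive and 12 a negative log2 fold change, against 7319 and 5729 over all genes. Glycolysis genes had 3 above and 6 below of 21 (median -0.01), and p53 targets and CDK inhibitors 1 above and 5 below of 24 (median 0.00). Of 18 fetal axis and HOX genes expressed, HMGA1 and HMGA2, chromatin proteins of fetal cells, had log2 fold changes of -0.51 and -0.60. With 1 library left out these ran from -0.69 to -0.32 and from -0.87 to -0.34. DLK1 and IGF2 had the opposite direction, so no common direction was seen.

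A block of neighbouring genes on chromosome 20, from HM13 to ASXL1, lay mostly above WT in both cell types of the clone. Of its 15 expressed members, 10 were above and 1 below both WT libraries in HPCs (median 0.58). In HEs 11 were above and 0 below (median 0.53), against 13.9% above and 19.1% below over all genes in HEs. This list had been chosen on these libraries, and its count is not independent evidence. ASXL1, a Polycomb-associated protein, was at 53.4 and 43.8 TPM in WT and at 93.7 and 81.0 TPM in GATA2-/- (log2 fold change 0.84), and BCL2L1, an inhibitor of apoptosis, at 103 and 111 TPM in WT and at 160.5 and 163 TPM in GATA2-/- (0.59). Genomic copy number was not measured here.

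The direction of a gene in HPCs was related to its length. Over 12953 genes with an annotated model, Spearman's rho of the log2 fold change was 0.240 with exonic length and -0.318 with GC content in HPCs, and -0.001 and 0.035 in HEs. Between replicates (2 minus 1) it was -0.208 with length and -0.049 with GC content in WT, and -0.100 and 0.181 in GATA2-/-. In 5 equal groups from the shortest to the longest genes, the median log2 fold change in HPCs was -0.11, 0.00, 0.05, 0.12 and 0.19, and the share of genes above both WT libraries went from 14.0% to 29.7% and that below both from 27.1% to 7.06%. These are correlations across genes of the same 4 libraries, and genes are not independent replicates. Members of the lists differ in length: the median was 2941 exonic bases for cytosolic ribosomal proteins and 2662 for the nuclear encoded respiratory chain, against 4784 for cholesterol synthesis and 5328 for all genes. After correction of each library for length and GC content, the medians were -0.33, -0.25 and 0.48 for these lists, 0.66 for the mitochondrially encoded proteins and -0.61 for blood cell surface and cytoskeleton genes, and CKB and RPS6KA2 were the genes past the threshold. The plot by exonic length gives the values for each group.

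**Figure D5:**
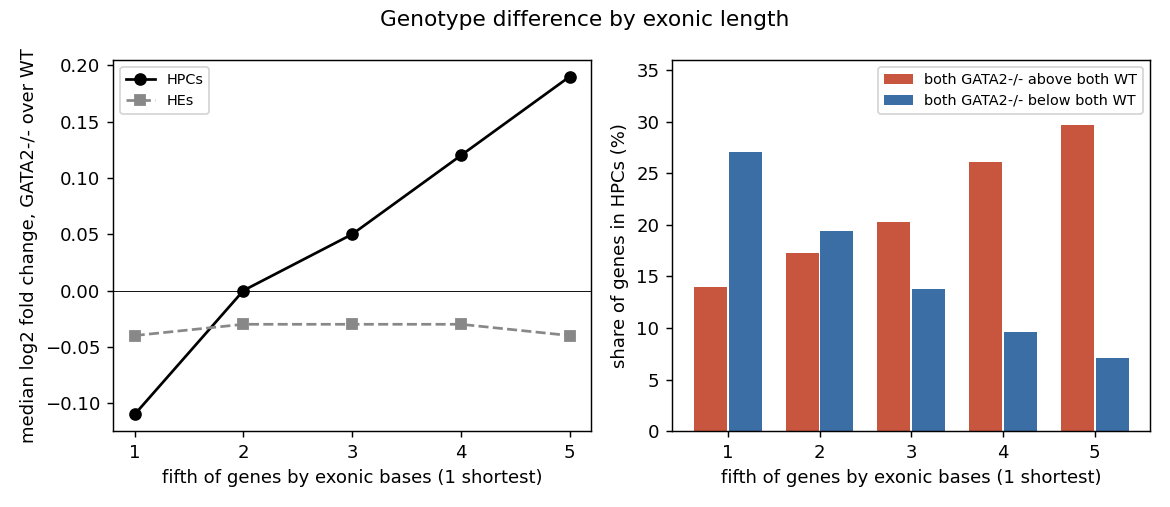
Left, median log2 fold change of GATA2-/- over WT in HPCs (circles) and HEs (squares) for 5 equal groups of genes from the shortest to the longest exonic length; right, share of genes (%) in each group whose 2 GATA2-/- HPC libraries were both above or both below the 2 WT HPC libraries. In HPCs the median runs from -0.11 to 0.19 and in HEs it stays between -0.04 and -0.03.

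Within each replicate number, where 1 GATA2-/- library stands against 1 WT library and no test is possible, the list medians in replicates 1 and 2 were 0.60 and 0.43 for cholesterol synthesis, -0.80 and -0.27 for blood cell surface and cytoskeleton genes, -0.42 and -0.26 for antigen presentation and 0.09 and 0.48 for endothelial genes. The medians differed in sign for megakaryocyte and platelet genes (-0.27 and 0.12), Notch pathway genes (-0.21 and 0.29), myeloid transcription factors (-0.41 and 0.18), integrin and adhesion genes (-0.45 and 0.10) and cytokine receptors (-0.03 and 0.38). They also did for neutrophil genes (-0.25 and 0.08), GATA and FOG genes (-0.04 and 0.32) and progenitor transcription factors (-0.03 and 0.24), and for some of the other lists.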

How the data were processed

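RNA-Seq data came from sorted HPCs and HEs of WT H1 and H1-GATA2-/- cells and from undifferentiated H1-GATA2-/- cells, 2 libraries in each of 5 groups. WT hESCs were not analysed here. The authors sequenced size-selected TruSeq libraries as short single-end reads, removed adapters and aligned to hg19 (Bowtie 0.12.7). The deposited values are TPM per Ensembl gene with 2 decimals, summing to between 998299 and 999106 per library, and keep no read number. The study's supplement names Cufflinks and Cuffdiff for abundance estimates in its own test, and the submitters' processing notes list RSEM and mm10. Which of these programs gave the deposited TPM, and how reads of the mouse OP9 cells were treated, are not given in the sources used here.

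Values were analysed as log2(TPM + 1), which understates the change of low genes. The test was limma 3.58.1 (R 4.3.3, moderated variance with a trend) over all 10 libraries and the 21543 genes with 1 TPM or more in 2 or more of them, with Benjamini-Hochberg adjustment over all and a threshold of 0.05. The 5 groups shared 1 estimate of the spread, with 5 residual degrees of freedom. Coding status, positions and exonic lengths came from GENCODE 44 lifted to GRCh37, and 96 genes outside it were taken as coding by their RefSeq symbol. Shares of TPM were compared with exact two-sided permutation tests (scipy 1.17.1). On simulated data for this comparison (21543 genes), limma called 92 of 100 genes changed by 2 on the log2 scale and 100 of 100 changed by 4, and 8 others. The changed genes were drawn only from those above a set mean level. The simulated noise was normal and independent between libraries, with a spread smoothed over genes of similar level. Real genes vary more unevenly, so these rates check the procedure and do not give its sensitivity in the real libraries.

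Named genes were GATA2, all genes past the threshold, the 10 largest rises and falls under the limits given in the text, members of 38 gene lists at an unadjusted p under 0.05 or otherwise the most abundant, sorting and lineage markers, and the 10 most abundant genes of each genotype. Other list members named for their role were chosen after their values were seen. Some genes that this rule names are not reported here. The genes and lists were chosen with earlier results of these data known. The labels do not say whether replicates were separate cultures, so p-values measure the spread between libraries, which may be technical. The alternatives tried are named in the closing section, and 1 of them, a loess correction (span 0.5) for exonic length and GC content, was chosen after seeing the data.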

Additional observations from a re-analysis of the deposited data

Results flagged for a closer look

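TGIF2-C20orf24, a readthrough gene of chromosome 20, moved in opposite directions in the 2 cell types. Its log2 fold change was 1.46 in HPCs, where both GATA2-/- libraries (19.3 and 31.5 TPM) were above both WT libraries (11.9 and 5.82 TPM), and -1.24 in HEs, where both libraries labelled GATA2-/- (4.21 and 3.76 TPM) were below both WT libraries (8.17 and 14.1 TPM). The difference between the effects had an unadjusted p of 0.00126 and an adjusted p of 0.501 in limma, so it did not pass the threshold. The gene shares reads with TGIF2 and C20orf24, and how the reads were divided between them was not tested.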

How the results depend on the processing

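The 3 genes past the threshold in HPCs (CKB, RPS6KA2 and AL109927.1) became 0 with only the 4 HPC libraries in the fit (741 genes at an unadjusted p under 0.05), 5 with eBayes without trend, CKB not among them, and 10 with coding genes only, all in limma. The pseudocount of 0.1, no filter, quantile normalization, equal medians, totals without mitochondrially encoded genes, a minimum of 200 exonic bases and the length and GC correction each gave 2 or 3. CKB and RPS6KA2 were among them each time, AL109927.1 only with totals without mitochondrially encoded genes, and at the pseudocount of 0.1 the third was AL353354.2, lower in GATA2-/-. Leaving out 1 HPC library in turn gave 0 to 1 genes: 0 without either WT library or without replicate 2 of GATA2-/-, and CKB alone without its replicate 1. Over all settings the log2 fold change of CKB ran from -2.17 to -1.66 (adjusted p 0.0082 to 0.354) and that of RPS6KA2 from 1.96 to 2.5 (adjusted p 0.0131 to 0.354), and GATA2 from -1.57 to -1.06 (adjusted p 0.229 to 0.526). In HEs the 1 gene past the threshold, PF4, became 0 with equal medians, and with only the 4 HE libraries the 1 gene was CHCHD2. No gene passed for the difference between HPCs and HEs in any setting that fitted all libraries of both cell types, while 599 to 1137 had an unadjusted p under 0.05. The cause of these changes was not tested. No named gene with an unadjusted p under 0.05 changed sign in these settings. Medians of several lists did with 1 library left out, among them globin genes (0.31, from -0.51 to 1.13), endothelial genes (0.37, from -0.03 to 0.70), lymphoid genes (-0.44, from -0.68 to 0.01), integrin and adhesion genes (-0.16, from -0.32 to 0.13), progenitor transcription factors (0.12, from -0.17 to 0.36) and Notch pathway genes (0.05, from -0.31 to 0.45). The difference of the mitochondrial share was 5.12 percentage points as a share of coding TPM, and 5.33 to 6.29 with 1 library left out. Precision is limited by 2 libraries per group and an unknown depth.

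Groups share replicate numbers from the labels, and the column headers of replicate 2 of HEs and HPCs share a tag. With 2 pairs the numbers were not shown to pair the samples. Over all tested genes the correlation of deviations was 0.055 between WT and GATA2-/- HPCs and 0.123 between the HE groups. This does not exclude effects shared by smaller sets of genes, such as the abundant globins, which were higher in replicate 2 of both HPC groups. With the replicate number as a block, 1 HPC gene (CKB) passed, RPS6KA2 had an adjusted p of 0.0518 and GATA2 of 0.284 in limma. With a block within each cell type, 0 genes passed in HPCs and 0 in HEs. At an unadjusted p under 0.05 in limma there were 1487 HPC genes with the first block and 1795 with the second, against 1196 without a block.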

Other observations

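Several further gene groups of day 9 HPCs were mixed, and of their members CKB and RPS6KA2, described above, passed the adjusted threshold in limma. Of 25 integrin and adhesion genes, 7 were below and 2 above both WT libraries in both GATA2-/- libraries (median log2 fold change -0.16), the lower ones including ICAM1, a ligand of leukocyte integrins, at 24.5 and 12.5 TPM in WT and at 5.60 and 8.45 TPM in GATA2-/-. Of 13 apoptosis regulators of the BCL2 family, 6 were below and 2 above (median -0.23). BID, which links death receptors to mitochondria, was at 81.0 and 74.3 TPM in WT and at 58.6 and 35.8 TPM in GATA2-/-, while BCL2L1, which inhibits apoptosis, was above WT in both libraries and lies in the block on chromosome 20. Of 9 lymphoid genes, 2 were below and 0 above (median -0.44, or 0.01 without replicate 1 of GATA2-/-). Of 21 heme synthesis and iron genes, 7 were above and 2 below (median 0.13), with the iron importer of mitochondria, SLC25A37, at 181 and 177 TPM in WT and at 269 and 279.9 TPM in GATA2-/-, and FLVCR1, a heme exporter, at 9 and 9.43 TPM in WT and at 16.7 and 13.5 TPM in GATA2-/-. Over all genes described, 21.5% were above and 15.4% below.

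Of 21 stromal and mesenchymal genes, 2 were above and 3 below both WT libraries (median -0.08). FN1, fibronectin, was at 43.1 and 20.7 TPM in WT and at 69.3 TPM in both GATA2-/- libraries, and POSTN, a secreted matrix protein, at 12.2 and 7.07 TPM in WT and at 2.08 and 2.74 TPM in GATA2-/-. The summed level of the 25 stromal and mesenchymal genes in the files was 1019 and 519.8 TPM in WT and 949 and 549 TPM in GATA2-/-, with SPARC the most abundant. Of 8 pluripotency genes, 1 was above and 1 below (median -0.05), the latter being GDF3, a TGF-beta family ligand, at 94.0 and 55.1 TPM in WT and at 40.1 and 18.1 TPM in GATA2-/-. Of 9 genes of the TAL1 complex, 1 was above and 1 below (median 0.23), of 19 hypoxia targets 5 were above and 1 below (median 0.13), of 14 heat shock genes 3 and 3 (median -0.03), of 10 neutrophil genes 1 and 2 (median -0.12), and of 19 creatine, S6 kinase and energy sensing genes 4 and 6 (median -0.09). Of 10 globin genes 0 were above and 2 below (median 0.31), and of 18 fetal axis and HOX genes 3 and 2 (median -0.07). The most abundant nuclear genes of WT HPCs were EEF1A1, GAPDH and ACTB, with log2 fold changes of -0.20, -0.39 and -0.35. As to presence, of the 13049 genes 168 were at 1 TPM or more in both GATA2-/- libraries and under it in both WT libraries, and 102 the reverse. These genes entered the description through 1 genotype only, by the same limit of 1 TPM that defines the counts. The counts are therefore no evidence of a difference between the genotypes.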
